A study of Homo sapiens with 12 samples.

Results

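The genes described here were 4 insulin-like growth factor (IGF) binding proteins (IGFBP3, IGFBP4, IGFBP6 and IGFBP7), 3 receptors (IGF1R, IGF2R and INSR) and 2 adaptors (IRS1 and IRS2). They were taken by symbol, and all 9 were found among the 60664 genes of the table and passed the filter on low counts in every comparison. Their RNA was measured in MDA-MB-231 cells, a human triple-negative breast cancer line, in 12 RNA-seq libraries. WT normoxia cells (4 libraries) were wild type and untreated, and WT hypoxia cells (4 libraries) were wild type cells kept in hypoxia for 24 hr. CCAR2 KO cells (4 libraries) were CCAR2-/- and otherwise untreated, made with LentiCRISPR according to the methods, which do not say whether the line is 1 clone. CCAR2 encodes the nuclear protein also called DBC1. All 3 groups were grown in medium with serum, whose content of IGFs and insulin was not measured. No hypoxic CCAR2 KO library was analysed here.

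The study asked how MDA-MB-231 cells respond to hypoxia and to loss of CCAR2. Library totals ran from 68599412 to 213743693 estimated counts, and every one of the 9 genes had at least 1888 counts in every library. CCAR2 was at 146 ± 3.11 CPM (counts scaled to library size) in WT normoxia and at 57.8 ± 2.81 CPM in CCAR2 KO (SD, n = 4), a fall that left RNA of the gene in each KO library. For the knockouts, the study's methods report sequencing of the edited regions and loss of the protein by Western blotting. RNA that remains is therefore not a measure of remaining protein. CA9, a carbonic anhydrase used as a marker of hypoxia, rose from 0.0649 ± 0.0232 CPM to 4.90 ± 0.399 CPM in WT hypoxia (SD, n = 4). All 4 mesenchymal markers of the line were present over the 12 libraries, VIM at 4407 to 5396 CPM, CD44 at 524 to 670 CPM, AXL at 959 to 1248 CPM and FN1 at 320 to 1277 CPM. Of 6 luminal or epithelial markers, ESR1, PGR and CDH1 stayed at or below 0.470 CPM, while KRT8 (764 to 1011 CPM), ERBB2 (88.8 to 107 CPM) and EPCAM (11.7 to 17.9 CPM) were present. Of the markers of other cell types, PTPRC, ALB and DCN did not pass 0.236 CPM in any library. PECAM1 was at 1.89 to 5.76 CPM and ACTA2 at 1.87 to 6.55 CPM, both differed between groups, and their part in the results was not tested. The study's methods call the replicates biological, but give another number of them than the 4 libraries per group analysed here. The labels do not say whether the libraries of a group came from separate cultures, so p-values measure only the spread between these libraries, which may be technical.

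IGF1 and IGF2 act through IGF1R, a receptor tyrosine kinase closely related to the insulin receptor INSR. Activated receptors phosphorylate the docking proteins IRS1 and IRS2, which recruit PI3K and so switch on AKT and mTORC1. IGF2R has no kinase: it carries mannose-6-phosphate-tagged enzymes to lysosomes and removes IGF2 from the cell surface. The IGFBPs are secreted proteins that hold IGFs away from the receptor or carry them, and proteases such as PAPPA release the ligand by cutting IGFBP4. In breast cancer cells the pathway is known for its part in growth and survival.

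The upstream sequences of 3 of the genes are shown first. IGFBP3 was called higher in hypoxia and not in CCAR2 KO against WT normoxia. The binding protein IGFBP4 and the receptor IGF2R were called higher in CCAR2 KO with no call in hypoxia. IGFBP6, called higher in both, is not shown, since its window lies mostly in an exon. The bases come from RefSeq (GRCh38.p14), which held 8 of the 9 genes; IGFBP7 was not in the table. They run 5′ to 3′ on the gene's own strand and end at the RefSeq start site, or just before it where the bases next to it lie in an exon. Capitals mark the core of a hypoxia response element, ACGTG or GCGTG, on either strand. Where ACGTG lies on both strands at once the capitals read CACGTG, the E-box letters.
IGFBP3, chr7:45921275-45921522 (minus strand): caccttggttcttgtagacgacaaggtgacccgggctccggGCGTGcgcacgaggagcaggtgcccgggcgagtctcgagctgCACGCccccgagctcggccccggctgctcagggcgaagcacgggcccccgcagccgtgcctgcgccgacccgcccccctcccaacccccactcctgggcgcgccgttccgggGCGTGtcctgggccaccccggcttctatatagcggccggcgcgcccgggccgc
IGFBP4, chr17:40443200-40443449 (plus strand): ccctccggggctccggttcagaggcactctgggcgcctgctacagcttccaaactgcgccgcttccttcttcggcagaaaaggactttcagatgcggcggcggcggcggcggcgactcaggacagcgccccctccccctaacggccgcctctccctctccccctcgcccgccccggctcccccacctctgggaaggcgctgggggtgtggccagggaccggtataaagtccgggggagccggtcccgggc
IGF2R, chr6:159968832-159969081 (plus strand): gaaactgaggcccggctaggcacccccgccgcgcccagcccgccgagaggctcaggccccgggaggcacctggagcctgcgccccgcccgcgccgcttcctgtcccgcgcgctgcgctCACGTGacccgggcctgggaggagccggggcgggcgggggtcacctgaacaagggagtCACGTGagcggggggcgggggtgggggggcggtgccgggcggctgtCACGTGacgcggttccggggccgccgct

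The IGFBP3 window held 3 copies of GCGTG, at -209, -167 and -55 from the start site. GCGTG was in 36.5% of the 35116 promoter windows of the same length (300 bases, 250 before the start and 50 after), and 4.3% held 3 or more. The IGFBP3 window lies inside the annotated span of the gene, since other transcripts begin farther upstream. In the IGFBP4 window neither core was present. The IGF2R window held TCACGTGA 3 times, at -133, -75 and -29, and each copy contains CACGTG and, on both strands, ACGTG. TCACGTGA is the core of the element bound by the lysosomal regulators of the TFEB family, and it was searched for after the IGF2R window had been seen. It was in 0.98% of the 35116 windows, and 4 windows, IGF2R among them, held 3 copies. CACGTG was in 7.26% of the windows and ACGTG in 21.4%. IGF1R held ACGTG once and GCGTG 4 times. IRS1 held GCGTG once before its start, at -168, and CACGTG once after it. IGFBP6, INSR and IRS2 held none of these letters in the window. For IGFBP6, 281 of the 300 bases lie in annotated exons of the gene, so sequence upstream of it was hardly searched. These are matches of letters only, and binding was not measured.

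To compare genes with each other, levels were also divided by the merged exon length of the gene and scaled to the same total in every library, as TPM is. On this per-length scale IGFBP4 was the highest of the 9 in WT normoxia at 1614 ± 95.2, followed by IGFBP7 at 303 ± 21.2 and IGFBP6 at 94.9 ± 12.1 (SD, n = 4). IRS2 at 65.9 ± 4.85 and IRS1 at 61.2 ± 8.12 followed, and their libraries overlapped. IGF2R was at 39.5 ± 4.53 and IGFBP3 at 19.3 ± 0.966. IGF1R at 16.4 ± 2.06 overlapped IGFBP3, and INSR was the lowest at 9.09 ± 1.32. The order of the 9 genes was the same in WT hypoxia and CCAR2 KO. With the longest transcript in place of merged exons, IGFBP3 moved from 7th to 5th place in WT hypoxia, where IRS1 fell from 5th to 7th, and IGF2R passed IRS1 in CCAR2 KO.

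In hypoxia, 2 of the 9 genes rose, IGFBP3 and IGFBP6, and none fell (edgeR quasi-likelihood test, called where the adjusted p was under 0.05 and the log2 fold change was 0.5 or more in either direction). Over all 21776 genes tested, 5.83% were called higher and 1.43% lower. At the adjusted p alone it was the same 2 genes, against 23.5% of all genes, and the same 2 had libraries that did not overlap between groups, against 26.4%. The median log2 fold change of the 9 was 0.04, beside 0.01 over all genes tested.

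In CCAR2 KO against WT normoxia, 3 of the 9 rose, IGFBP4, IGFBP6 and IGF2R, and none fell. The background over 21410 genes was 6.73% called higher and 2.94% called lower. At the adjusted p alone 6 of the 9 differed, all higher in CCAR2 KO, against 30.4% of all genes. Of these 6, IRS1 and IRS2 did not keep the adjusted p with all 12 libraries in one edgeR fit (adjusted p = 0.164 and 0.0797). IRS1 also lost it without WT normoxia replicate 2 or 3 or CCAR2 KO replicate 3 or 4 (edgeR adjusted p from 0.0515 to 0.0725). In all, 7 of the 9 had no overlap between the libraries of both groups, against 30.8%. The median log2 fold change of the 9 was 0.23, beside 0.01 over all genes.

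In CCAR2 KO against WT hypoxia, IGFBP4, IGF2R and IRS1 were called higher and IGFBP3 lower, against 7.08% higher and 7.88% lower over 21158 genes. At the adjusted p alone 6 of the 9 differed, IGFBP7 only under some settings, against 34.9% of all genes, and 6 had no overlap, against 35.9%. The median log2 fold change of the 9 was 0.18, beside -0.02 over all genes. This comparison changes genotype and oxygen together, and the 3 comparisons share their libraries, so their values are given side by side and not as independent evidence.

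IGFBP4 (ENSG00000141753, GRCh38 chr17:40443461-40457731, plus strand) encodes a small binding protein known mainly for holding IGFs away from their receptor. Its WT normoxia libraries were at 963, 1110, 1056 and 1101 CPM. The WT hypoxia libraries were at 937, 1021, 988 and 969 CPM. In CCAR2 KO they were at 1844, 1852, 2002 and 1924 CPM. Every KO library was above every WT library, while the hypoxia and normoxia libraries overlapped. IGFBP4 was 1.80-fold higher in CCAR2 KO than in WT normoxia, a log2 fold change of 0.85 (SE 0.05, edgeR adjusted p = 2.96e-07). Against WT hypoxia the log2 fold change was 0.96 (SE 0.05, edgeR adjusted p = 1.51e-07). Between hypoxia and normoxia it was -0.12 (SE 0.06, edgeR adjusted p = 0.184), with a 95% interval from -0.251 to 0.012. That value changed with the fit: with a GC trend removed it was -0.30 (SE 0.05, edgeR adjusted p = 0.00294), and with a length trend removed it was -0.16 (edgeR adjusted p = 0.0234), both under the fold limit. In bulk RNA, more expressing cells and more RNA per cell cannot be told apart.

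IGFBP6 (ENSG00000167779, chr12:53097436-53102345, plus strand) encodes a binding protein known for its preference for IGF2. WT normoxia libraries were at 31.4, 42.9, 36.9 and 41.0 CPM, and WT hypoxia libraries at 59.9, 65.5, 63.9 and 66.0 CPM. CCAR2 KO libraries were at 69.8, 79.8, 78.6 and 76.7 CPM. The 3 groups did not overlap, with normoxia lowest and CCAR2 KO highest. IGFBP6 rose 1.67-fold in hypoxia, a log2 fold change of 0.74 (SE 0.09, edgeR adjusted p = 0.000293). It was 2.002-fold higher in CCAR2 KO than in WT normoxia (log2 fold change 1.00, SE 0.09, edgeR adjusted p = 3.46e-06). CCAR2 KO exceeded WT hypoxia by 0.25 on the log2 scale (SE 0.06, edgeR adjusted p = 0.00438), below the fold limit. IGFBP6 is among the gene names in a heatmap that the study drew from these libraries, so its direction is not independent evidence.

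IGFBP3 (ENSG00000146674, chr7:45912245-45921874, minus strand) encodes the main IGF carrier of serum, which tumor cells also secrete. Its WT normoxia libraries were at 26.7, 25.1, 26.3 and 26.6 CPM. WT hypoxia libraries were at 46.7, 46.9, 39.0 and 36.8 CPM. The CCAR2 KO libraries were at 28.0, 27.7, 27.7 and 28.9 CPM. The hypoxia libraries were all above the other 8 and were also the most spread, with replicates 1 and 2 above replicates 3 and 4. Replicates 1 and 2 also had the lower library totals (76384973 and 83773680, beside 161509752 and 195621872). The part of depth in this spread was not tested. IGFBP3 rose 1.61-fold in hypoxia, a log2 fold change of 0.68 (SE 0.08, edgeR adjusted p = 0.000323). In CCAR2 KO the log2 fold change was 0.10 (SE 0.05, edgeR adjusted p = 0.153), with a 95% interval from -0.007 to 0.207, although the 4 KO libraries lay above the 4 WT normoxia libraries. That interval excludes a change as large as that of IGFBP3 in hypoxia. From WT hypoxia to CCAR2 KO the log2 fold change was -0.59 (SE 0.08, edgeR adjusted p = 0.000154).

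IGFBP7 (ENSG00000163453, chr4:57030773-57110385, minus strand) encodes a secreted protein that binds IGFs weakly and is also known to bind collagen. WT normoxia libraries were at 153, 188, 178 and 177 CPM, WT hypoxia libraries at 182, 191, 200 and 199 CPM, and CCAR2 KO libraries at 203, 219, 221 and 218 CPM. The KO libraries were the 4 highest and the 2 WT groups overlapped. IGFBP7 was 1.24-fold higher in CCAR2 KO than in WT normoxia (log2 fold change 0.31, SE 0.06, edgeR adjusted p = 0.00173), under the fold limit for a call. Against WT hypoxia the log2 fold change was 0.15 (SE 0.05, edgeR adjusted p = 0.0326, but 0.0517 with all 12 libraries in one fit and 0.0973 without WT hypoxia replicate 1), and between hypoxia and normoxia it was 0.14 (SE 0.07, edgeR adjusted p = 0.143). IGFBP7 shares 270 exon bases, 14.0% of its exons, with POLR2B on the opposite strand, which was at 234, 185 and 209 CPM in WT normoxia, WT hypoxia and CCAR2 KO. The sources do not say whether counting used strand, so IGFBP7 is reported as uncertain, and how many of its counts could come from POLR2B was not computed.

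As a share of the 4 binding proteins on the per-length scale, IGFBP4 made up 79.5% ± 0.507 in WT normoxia, 73.9% ± 0.550 in WT hypoxia and 83.2% ± 0.550 in CCAR2 KO (SD, n = 4). IGFBP6 made up 4.66% ± 0.323, 7.88% ± 0.187 and 5.44% ± 0.264 in the same order, and IGFBP3 0.952% ± 0.0885, 1.54% ± 0.206 and 0.591% ± 0.0244. IGFBP7 made up 14.9% ± 0.395, 16.6% ± 0.592 and 10.7% ± 0.290. For IGFBP4, IGFBP6, IGFBP3 and IGFBP7 alike, the shares did not overlap between the 3 groups. The sum of the 4 per-length levels was 2030 ± 126 in WT normoxia, 2060 ± 92.4 in WT hypoxia and 3640 ± 146 in CCAR2 KO. Thus the sum was higher in every KO library, while in hypoxia the summed level overlapped that of normoxia and the make-up differed. These shares were computed after the levels had been seen and were given no test. Their size depends on the length used. With the longest transcript in place of merged exons, IGFBP4 in WT normoxia was at 1201 in place of 1614. IGFBP3 was at 27.2 there in place of 19.3. The shares were not computed on that scale, and they include IGFBP7, whose counts are uncertain.

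**Figure D1:**
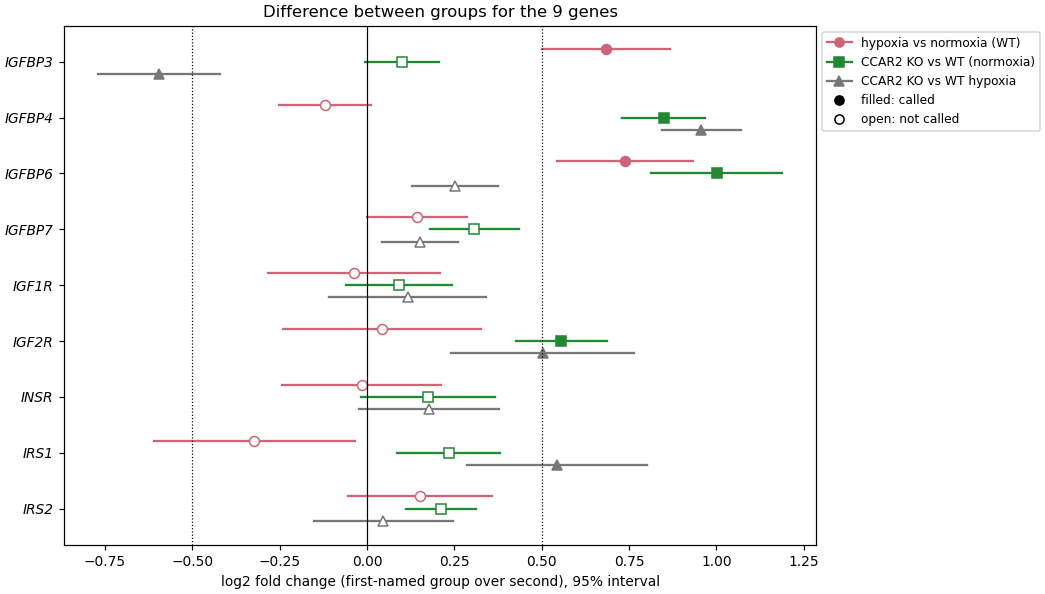
Log2 fold change of each of the 9 genes in the 3 comparisons (point) with its 95% interval (line); filled markers passed both thresholds and dotted lines stand at 0.5 and -0.5. Against WT normoxia, IGFBP3 is called in hypoxia and not in CCAR2 KO, IGFBP4 and IGF2R are called in CCAR2 KO and not in hypoxia, and IGFBP6 is called in both; IGFBP3 is called lower in CCAR2 KO than in WT hypoxia.

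IGF2R (ENSG00000197081, chr6:159969099-160113507, plus strand) was the receptor that rose. WT normoxia libraries were at 227, 187, 201 and 224 CPM. The WT hypoxia libraries were at 240, 155, 248 and 225 CPM. In CCAR2 KO the values were 313, 294, 315 and 311 CPM. Every KO library was above every WT library, and the hypoxia libraries straddled the normoxia libraries, with replicate 2 below all of them. IGF2R was 1.47-fold higher in CCAR2 KO than in WT normoxia, a log2 fold change of 0.56 (SE 0.06, edgeR adjusted p = 2.28e-05). Without WT normoxia replicate 2 it was 0.497, just under the fold limit. Against WT hypoxia the log2 fold change was 0.50 (SE 0.12, edgeR adjusted p = 0.00662), at the limit, and 0.370 without WT hypoxia replicate 2. In hypoxia it was 0.04 (SE 0.13, edgeR adjusted p = 0.859), with a 95% interval from -0.241 to 0.325. AIRN, an antisense gene inside the IGF2R locus, was at 0.0299 CPM or less on average in each group.

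IGF1R (ENSG00000140443, chr15:98648539-98964530, plus strand) encodes the receptor through which both IGFs signal. It was at 74.6, 60.6, 63.8 and 73.1 CPM in WT normoxia and at 73.3, 51.5, 74.5 and 67.3 CPM in WT hypoxia. The CCAR2 KO libraries were at 73.6, 66.0, 74.0 and 76.4 CPM. All 3 groups overlapped. The log2 fold change was -0.04 in hypoxia (SE 0.11, edgeR adjusted p = 0.855) and 0.09 in CCAR2 KO (SE 0.07, edgeR adjusted p = 0.376). The 95% intervals ran from -0.283 to 0.208 and from -0.061 to 0.243, so changes of the size called here (0.5) lie outside both. Against WT hypoxia, CCAR2 KO differed by 0.12 (SE 0.10, edgeR adjusted p = 0.428).

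INSR (ENSG00000171105, chr19:7112255-7294034, minus strand) encodes the insulin receptor. Its WT normoxia libraries were at 30.3, 24.3, 26.5 and 31.8 CPM and its WT hypoxia libraries at 29.03, 23.1, 31.1 and 28.9 CPM. CCAR2 KO libraries were at 33.1, 33.3, 28.2 and 32.8 CPM. In CCAR2 KO replicates 1, 2 and 4 lay above all normoxia libraries and replicate 3 lay among them. The log2 fold change was -0.02 in hypoxia (SE 0.10, edgeR adjusted p = 0.937) and 0.17 in CCAR2 KO (SE 0.09, edgeR adjusted p = 0.166), with 95% intervals from -0.244 to 0.213 and from -0.018 to 0.366. From WT hypoxia to CCAR2 KO it was 0.18 (SE 0.09, edgeR adjusted p = 0.164).

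IRS1 (ENSG00000169047, chr2:226731317-226799759, minus strand) encodes the first of the insulin receptor substrates, which dock PI3K at the activated receptor. WT normoxia libraries were at 195, 159, 170 and 200 CPM, and WT hypoxia libraries at 164, 106, 169 and 143 CPM. The CCAR2 KO libraries were at 208, 206, 216 and 222 CPM. The KO libraries were the 4 highest of the 12, while hypoxia and normoxia overlapped, with hypoxia replicate 2 lowest. In hypoxia the log2 fold change was -0.32 (SE 0.13, edgeR adjusted p = 0.101), with a 95% interval from -0.610 to -0.035, and DESeq2 gave it an adjusted p of 0.0398. With replicate number as a block in the edgeR fit it was -0.34 (edgeR adjusted p = 0.0219). In CCAR2 KO against WT normoxia it was 0.23 (SE 0.07, edgeR adjusted p = 0.0199), under the fold limit. CCAR2 KO was 1.46-fold above WT hypoxia, the only comparison in which IRS1 was called (log2 fold change 0.54, SE 0.12, edgeR adjusted p = 0.00366). Without WT hypoxia replicate 2 this value was 0.419, and the call was lost.

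IRS2 (ENSG00000185950, chr13:109752698-109786568, minus strand) encodes the second widely expressed substrate. It was at 165, 151, 155 and 167 CPM in WT normoxia, at 194, 142, 198 and 179 CPM in WT hypoxia and at 186, 175, 184 and 194 CPM in CCAR2 KO. The KO libraries were all above the normoxia libraries, and 3 of the 4 hypoxia libraries were too. The log2 fold change in CCAR2 KO was 0.21 (SE 0.05, edgeR adjusted p = 0.00412), under the fold limit. In hypoxia it was 0.15 (SE 0.09, edgeR adjusted p = 0.278). Without WT hypoxia replicate 2 the hypoxia value of IRS2 was 0.24 (edgeR adjusted p = 0.00745), with the length trend removed it was 0.22 (edgeR adjusted p = 0.0185), and with the GC trend removed it was -2e-04, so its call at the adjusted p alone turned on these choices. CCAR2 KO against WT hypoxia was 0.05 (SE 0.09, edgeR adjusted p = 0.744). With 4 libraries against 4, the exact permutation test cannot go below p = 0.0286 (two-sided), and it took that value for every one of the 9 genes wherever the libraries of both groups did not overlap.

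Within the WT groups the receptors and adaptors moved together from library to library. In WT hypoxia replicate 2 all 5 (IGF1R, IGF2R, INSR, IRS1 and IRS2) were below their group mean, by -0.465 to -0.27 in log2 CPM. In the same library the median over 2523 other genes with transcripts of at least 6000 bases was -0.128, and over 2854 genes with transcripts under 2000 bases it was 0.108. The 5 genes were all below their mean in WT normoxia replicates 2 and 3, and all above it in WT normoxia replicates 1 and 4. The 4 binding proteins, whose transcripts are shorter, ran from -0.017 to 0.155 in WT hypoxia replicate 2. In WT normoxia replicates 1 to 4 the median of the other long transcripts was 0.093, -0.063, -0.045 and 0.019. In CCAR2 KO replicates 1 to 3 the 5 genes did not share a sign. Whether transcript length lay behind these deviations was not tested. The part of length in the differences between groups was not tested beyond the fit with a length trend removed. In that fit IGF2R fell to 0.476 in CCAR2 KO against WT normoxia and to 0.362 against WT hypoxia, and IRS1 fell to 0.403 against WT hypoxia, all under the fold limit. IGFBP3, IGFBP4 and IGFBP6 kept their calls there.

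**Figure D2:**
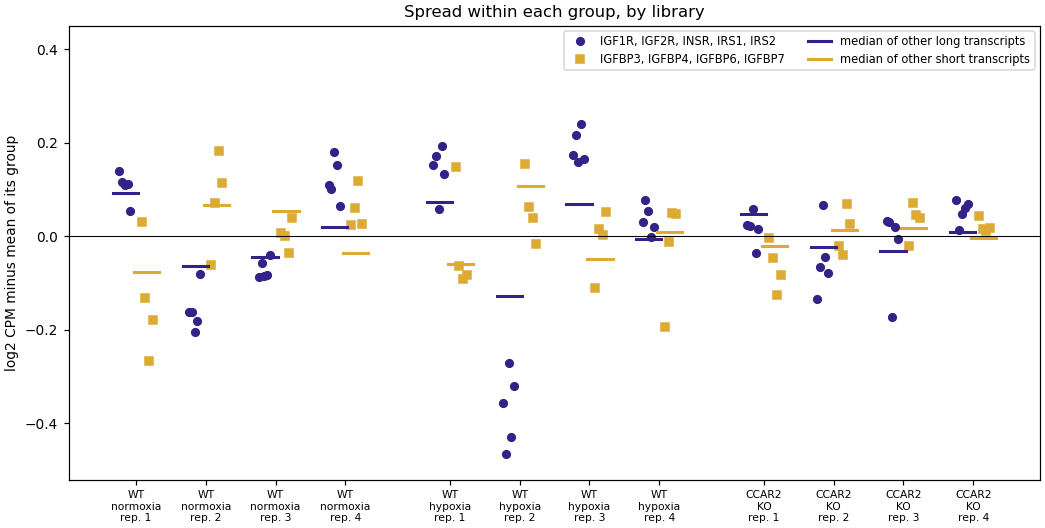
Deviation of each library from the mean of its group in log2 CPM, for the 5 receptors and adaptors (circles) and the 4 binding proteins (squares), with the median of other long (at least 6000 bases) and short (under 2000 bases) transcripts as lines. In WT hypoxia replicate 2 the circles lie between -0.465 and -0.27, below the median of the other long transcripts at -0.128.

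Ratios of 2 long transcripts were therefore also taken within each library. The IRS2 to IRS1 ratio of counts was 0.850, 0.947, 0.910 and 0.831 in WT normoxia. In WT hypoxia it was 1.18, 1.33, 1.17 and 1.25, and in CCAR2 KO 0.897, 0.846, 0.851 and 0.872. Every hypoxia library was above 1 and every other library below 1. The group means were 0.885 ± 0.0536, 1.23 ± 0.0731 and 0.867 ± 0.0232 (SD, n = 4). This ratio was picked after its values were seen and was given no test. It does not account for GC content, which was 58.7% for IRS2 and 50.7% for IRS1. With the GC trend removed, the log2 fold changes in hypoxia were -2e-04 for IRS2 and -0.37 for IRS1, beside 0.15 and -0.32 in the main fit. The IGF2R to IGF1R ratio was 3.08 ± 0.0469 in WT normoxia, 3.24 ± 0.160 in WT hypoxia and 4.26 ± 0.160 in CCAR2 KO, with all KO libraries above all WT libraries. For IGF1R to INSR the means were 2.42 ± 0.0843, 2.37 ± 0.125 and 2.29 ± 0.267, and the groups overlapped.

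For each of the 5 genes called in some comparison, the 3 genes with the most similar profile were found among 14704 genes, by the root mean square difference of centred log2 CPM over the 12 libraries. CLU (0.072) and MORC4 (0.073) were among the 3 nearest to IGFBP4. TNS3 (0.050), ASAP2 (0.075) and MYOF (0.076) were nearest to IGF2R. PAM (0.087), NIPSNAP1 (0.092) and INSIG2 (0.095) were nearest to IGFBP3. ORAI3 (0.095), C1orf116 (0.113) and ALDH3B1 (0.118) were nearest to IGFBP6, and MAP3K9 (0.061), BRWD3 (0.063) and BCORL1 (0.065) to IRS1. The lists had no gene in common.

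The rest of the pathway was read through a list of 74 other genes. Their values come from the main fit alone and were not checked with the alternative fits or with single libraries left out. Of these, 68 were tested in hypoxia, where 3 rose and 2 fell, 7.35% in all beside 7.26% of all genes tested, and the median log2 fold change was -0.07. In CCAR2 KO against WT normoxia 66 were tested, 9 rose and 3 fell (18.2%, beside 9.67% of all genes), and the median was 0.06. In CCAR2 KO against WT hypoxia 67 were tested, 12 were higher and 8 lower (29.9%, beside 15.0% of all genes), with a median of 0.09.

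The ligands were close to absent from these libraries. IGF1 had 1 count and INS 9 counts over all 12 libraries, and IGF2, the highest of the 3 ligands, was at 0.134, 0.151 and 0.0755 CPM in WT normoxia, WT hypoxia and CCAR2 KO. Among the other binding proteins, IGFBP2 had 0 counts in all 12 libraries. IGFBPL1, a protein with an IGFBP-like domain, fell from 105 to 56.7 CPM in CCAR2 KO (log2 fold change -0.89, edgeR adjusted p = 8.97e-08), so it moved opposite to IGFBP4 and IGFBP6 there. IGFBP1, known as a hypoxia-responsive member of the family in liver cells, was at 16.9 CPM in WT normoxia and 13.9 CPM in WT hypoxia (log2 fold change -0.29, edgeR adjusted p = 0.0288, under the fold limit). IGFBP1 was named after its values had been seen.

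Of 6 genes listed as proteases of the binding proteins or as their inhibitors, 3 rose in CCAR2 KO against WT normoxia and none fell. Over all genes tested, 6.73% rose and 2.94% fell. PAPPA2, FURIN and STC2 were not called there. In hypoxia 1 of the 6 rose and none fell, against 5.83% and 1.43% of all genes. Against WT hypoxia 2 were higher and 2 lower in CCAR2 KO, against 7.08% and 7.88% of all genes. PAPPA, which cuts IGFBP4, rose in CCAR2 KO from 0.810 to 2.59 CPM, a log2 fold change of 1.68 (SE 0.19, edgeR adjusted p = 3.05e-05). HTRA1, a secreted serine protease, rose from 9.78 to 19.1 CPM (log2 fold change 0.96, edgeR adjusted p = 3.55e-07). STC1, an inhibitor of PAPPA, rose 0.83 in CCAR2 KO (edgeR adjusted p = 2.43e-05) and 1.81 in hypoxia, to 50.05 CPM (edgeR adjusted p = 2.69e-06). STC1, like IGFBP6, was called in both comparisons. FURIN, a protease placed in this role by the list, was its highest gene per length, at 82.7, 86.6 and 103 in the 3 groups. It was not called, and its action on the binding proteins was not examined.

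Of the other receptors, LRP1, an endocytic receptor, rose in hypoxia from 39.2 to 96.8 CPM (log2 fold change 1.29, SE 0.15, edgeR adjusted p = 0.000224). Its log2 fold change in CCAR2 KO was 0.49 (edgeR adjusted p = 0.00515), under the fold limit. M6PR, the small mannose-6-phosphate receptor that shares cargo with IGF2R, was at 112, 100 and 98.7 CPM and was not called, with a log2 fold change of -0.18 in CCAR2 KO (edgeR adjusted p = 0.00287). Hence IGF2R rose in CCAR2 KO beside an M6PR that was slightly lower. This drop was not particular to CCAR2 KO. In hypoxia, where IGF2R was not called, the log2 fold change of M6PR was -0.17 (edgeR adjusted p = 0.0374). Between CCAR2 KO and WT hypoxia it was -0.02 (edgeR adjusted p = 0.749).

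At the level of adaptors and PI3K, GRB10, an adaptor that dampens INSR and IGF1R signaling, rose in CCAR2 KO (log2 fold change 0.55, edgeR adjusted p = 6.06e-07), and its relative GRB14 fell by 0.75 on the log2 scale (edgeR adjusted p = 0.00111). PIK3R3, a regulatory subunit of PI3K, rose 0.77 (edgeR adjusted p = 3.58e-05). PIK3CA, the catalytic subunit p110-alpha, fell by 0.61 on the log2 scale in hypoxia, from 56.7 to 37.3 CPM (edgeR adjusted p = 4.82e-05). RICTOR, which defines mTORC2, had a log2 fold change of -0.5003 in hypoxia, at the fold limit (SE 0.08, edgeR adjusted p = 0.0011). SHC1 and PIK3R2 were the highest of their roles per length, at 173 and 128 in WT normoxia, and neither was called.

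Further down, DDIT4, an inhibitor of mTORC1 known to respond to hypoxia, rose 1.52 in hypoxia (edgeR adjusted p = 1.59e-06) and 0.58 in CCAR2 KO (edgeR adjusted p = 0.000151). FOXO4, a transcription factor restrained by AKT, rose 0.52 in CCAR2 KO (edgeR adjusted p = 0.00261). ENPP1, an ectoenzyme known to inhibit INSR, rose from 43.1 to 139 CPM in CCAR2 KO (log2 fold change 1.69, SE 0.06, edgeR adjusted p = 7.14e-09), beside the INSR value of 0.17 given above. IGF2BP3, an RNA-binding protein named for its binding of IGF2 mRNA, rose 0.78 in CCAR2 KO (edgeR adjusted p = 1.16e-05). PPP2CA, EIF4EBP1, GSK3A, PTPN1 and IGF2BP2 were the highest of their roles per length, and of these IGF2BP2 alone was called, lower in CCAR2 KO than in WT hypoxia (log2 fold change -0.52, edgeR adjusted p = 1.74e-05).

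Several genes of the list were called by both thresholds only between CCAR2 KO and WT hypoxia, as IRS1 was. The IRS1 call was lost without WT hypoxia replicate 2 and with the length trend removed. Whether the calls of the list genes depend on these was not tested. SOS2, PIK3CB, PIK3R1 and PHLPP2 were higher in CCAR2 KO there by 0.64, 0.83, 0.59 and 0.63 on the log2 scale. In hypoxia, SOS2 (-0.48, edgeR adjusted p = 0.000777), PIK3CB (-0.36, edgeR adjusted p = 0.00764) and PHLPP2 (-0.46, edgeR adjusted p = 0.00514) were lower at the adjusted p alone. PIK3CB was also higher at the adjusted p alone in CCAR2 KO against WT normoxia (0.48, edgeR adjusted p = 0.000104). STC2 was lower, with a log2 fold change of -0.66. PIK3CA (0.76) and RICTOR (0.62) were higher in CCAR2 KO than in WT hypoxia and not called against WT normoxia.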

How the data were processed

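RNA of MDA-MB-231 cells was sequenced by the authors on an Illumina platform as 12 libraries, 4 per group, and groups were taken from the sample labels. The deposited table holds counts per gene, taken here as estimated counts, which are whole numbers not scaled to library size. According to the study's methods the authors aligned cleaned paired reads with Hisat2 v2.2.1 and quantified them with StringTie v2.1.4, whereas the submitters' processing notes name HISAT2, SAMtools and featureCounts; RNA extraction, library kit and replicate number also differ between both sources. The genome build, annotation and use of strand are not given in the sources used here. Which of these tools made the deposited table is not known here. The values may be coverage-based estimates, which are not numbers of reads, so counting intervals were not computed.

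Counts were tested as deposited with edgeR 4.0.16 (R 4.3.3, TMM, filterByExpr on the groups compared, glmQLFit and glmQLFTest, Benjamini-Hochberg adjustment over all genes tested). Genes were called at adjusted p under 0.05 and absolute log2 fold change of at least 0.5, the study's thresholds. CPM values use TMM-scaled library sizes; intervals are at 95%. DESeq2 1.42.0, other normalizations, filters, thresholds, a fit of all 12 libraries, a replicate block, removal of GC or length trends and leaving out single libraries were the alternatives. Positions, lengths and overlaps come from GENCODE 29 (GRCh38), matched by gene identifier, which held 58396 of the 60664 genes. Scripts were tested on simulated data.

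The 9 genes and the 74-gene list were chosen with earlier results of these data known. Named genes were the 9, genes of the list called in some comparison, the highest gene of each role per length, CCAR2 and CA9, the nearest profiles and overlapping genes, of which some are not reported here. After removal of group means, same-numbered libraries correlated at 0.02 to 0.146 for hypoxia and normoxia. The correlations were -0.217 to 0.039 for CCAR2 KO and WT normoxia, and -0.012 to 0.082 for CCAR2 KO and WT hypoxia. The labels name no shared batch, so the numbers were not taken as pairs in the main fit and were a block among the alternatives.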

Additional observations from a re-analysis of the deposited data

Results flagged for a closer look

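One library of 1 gene stood apart from the other 3 of its group: INSR in CCAR2 KO replicate 3, at 28.2 CPM beside 32.8 to 33.3 CPM in the other KO libraries. Its gap to the nearest library made up 0.91 of the group's range, above Dixon's critical value for 4 values at the 95% level. Of 27 groups of 4 libraries looked at (9 genes in 3 groups), 1 was above it, and chance flags about 1 in 20 groups, here 1.35. The cause was not tested.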

How the results depend on the processing

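IGFBP3, IGFBP4 and IGFBP6 kept the direction of every log2 fold change and the call by both thresholds under DESeq2, RLE, upper-quartile scaling, both filters, one fit of all 12 libraries, the replicate block, removal of a GC or length trend (both chosen after seeing the data) and leaving out any library, but not every size. IGFBP4 in hypoxia went from -0.1193 to -0.3045 (edgeR adjusted p = 0.00294) with GC-trend removal, and IGFBP6 in CCAR2 KO against WT hypoxia from 0.2516 to 0.418. The remaining changes lay near a threshold or near 0, and the cause was not tested except where noted. IGF2R in CCAR2 KO against WT hypoxia dropped under the fold limit with upper-quartile scaling (0.4775), no filter (0.4946) and at least 10 counts in every library (0.499), and with the length trend removed (0.3619). Length-trend removal also took IGF2R against WT normoxia to 0.4762 and IRS1 against WT hypoxia to 0.4033, while IGF1R and IRS2 against WT hypoxia turned to -0.0289 and -0.0902. In hypoxia, IGF1R turned to 0.014 and INSR to 0.0362 with upper-quartile scaling, and to 0.0362 and 0.0602 with length-trend removal; INSR was 0.0021 with at least 10 counts, and IRS2 was -2e-04 with GC-trend removal. Upper-quartile scaling moved the genes called lower in hypoxia from 312 to 192.

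Leaving out single libraries gave ranges from -0.092 to 0.0626 for IGF1R, -0.0767 to 0.0613 for INSR and -0.0252 to 0.1698 for IGF2R in hypoxia. For IGF2R it gave 0.497 to 0.5931 in CCAR2 KO against WT normoxia, under the limit without WT normoxia replicate 2. Against WT hypoxia the range for IGF2R was 0.3695 to 0.5757, under the limit without WT hypoxia replicate 2 (0.3695), CCAR2 KO replicate 1 (0.4994) or CCAR2 KO replicate 3 (0.4936). IRS1 there ranged from 0.4193 to 0.6266, with the call lost without WT hypoxia replicate 2, and IRS2 from -0.0495 to 0.1047, negative without that library.

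By construction, thresholds moved the counts. With adjusted p alone, 2518 genes were higher and 2609 lower in hypoxia, 3199 and 3307 in CCAR2 KO against WT normoxia, and 3628 and 3762 against WT hypoxia. That threshold added IGFBP7 (0.3065), IRS1 (0.2336) and IRS2 (0.2114) against WT normoxia, and IGFBP6 (0.2516) and IGFBP7 (0.1521) against WT hypoxia. IGFBP7 there lost the adjusted p with upper-quartile scaling, no filter, all 12 libraries in one fit, or without WT hypoxia replicate 1 or CCAR2 KO replicate 2, 3 or 4 (0.0517 to 0.101). With a log2 fold change of at least 1 the counts were 440 and 47, 604 and 171, and 582 and 637. The calls lost were IGFBP3 (0.6839) and IGFBP6 (0.7378) in hypoxia, IGFBP4 (0.849) and IGF2R (0.5568) in CCAR2 KO against WT normoxia, and IGFBP3 (-0.5945), IGFBP4 (0.957), IGF2R (0.5025) and IRS1 (0.5439) against WT hypoxia.

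The replicate block changed no call of the 9 genes by both thresholds; IRS1 in hypoxia was -0.3381 with it (edgeR adjusted p = 0.0219 in place of 0.101). With it, 1183 genes were called higher and 324 lower in hypoxia, 1393 and 603 in CCAR2 KO against WT normoxia, and 1478 and 1613 against WT hypoxia. In hypoxia and normoxia 3 of 4 same-numbered pairs correlated over 0.1, and 3 libraries correlated best with their own number.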
